A study of Mus musculus with 15 samples.

Results

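The transcripts described here are those of the ubiquitin-specific protease (Usp) genes in proliferating mouse myoblasts whose transcription had been blocked. Members were taken from the platform annotation as every probe set with a single gene symbol made of Usp followed by a digit, and a gene with more than 1 probe set was represented by the one brightest at 0 min. The rule found 55 genes on 57 probe sets, out of 19452 genes and 25175 probe sets in the series. Of the 55 genes, 49 are Usp proteases of single copy or small families, 4 are members of the multicopy Usp17l group and are shown apart, and the remaining genes are Usp6nl, which encodes a GTPase-activating protein and no protease, and Usp46os2, a transcript of the strand opposite Usp46. Another 2 probe sets that carry a Usp symbol among several were not used for single genes.

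C2C12 is an established line of mouse myoblasts, precursors of muscle that stop dividing and fuse into myotubes once serum is lowered. The cells carried the empty LKO1 vector, grew in puromycin and were kept below the density at which they differentiate. All 15 samples received actinomycin D, which intercalates into DNA and stops RNA synthesis. The dose was 8 µg/mL, and the 0 min sample had already had 30 min of the drug, so there is no sample without the drug. Total RNA from 3 replicate time courses, each with a 0 min sample and later ones at 10, 50, 110 and 230 min, was hybridized to Affymetrix Mouse Gene 1.0 ST arrays, 1 per sample, and the question was how fast each mRNA decays.

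Ubiquitin is a small protein that is joined to other proteins as a mark for destruction by the proteasome, for traffic between membranes, for repair of DNA or for the control of chromatin. The ubiquitin-specific proteases are cysteine proteases that cut it off again, and they form the largest family of deubiquitinases. Most members recognise a few proteins or 1 kind of ubiquitin chain, and several work only with a cofactor, such as the WD-repeat protein Wdr48. In muscle cells ubiquitin is best known for the proteasome-dependent loss of protein in atrophy and for the turnover of regulators such as Myod1.

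Values are linear ratios to the 5th percentile of the array, so a transcript near 1.00 is among the dimmest measured, and tests were run on log2 of these ratios. All 7 myoblast markers were above the level filter at 0 min, among them Myod1 at a mean of 27.3 and Cdh15 at 18.0. Of the 6 myotube markers 5 were above the filter. Myog was at 2.79, Ckm at 2.81, Mymk at 3.50 and Tnnt3 at 3.65, Acta1 stood at 21.7, 6.07 and 8.25 in replicates 1, 2 and 3, and Myh3 was below the filter. Of 4 fibroblast markers 3 were above it, led by Col1a1 at 102 and Pdgfrb at 32.9, and of 4 adipocyte markers 2 were, Pparg at 12.1 and Cebpa at 3.94, while Fabp4 and Adipoq were below. The median of all probe sets ranged from 1.44 to 2.74 over the arrays, and the 75th percentile from 2.89 to 9.81, with replicate 1 low at 110 min and replicate 2 low at 230 min. Whether the replicate time courses came from separate cultures is not stated, so the p-values speak of the scatter of these arrays, part or all of which may be technical.

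Of the 49 Usp proteases, 39 were expressed, meaning that at least 2 of their 3 values at 0 min exceeded the median of the array. Usp9x, a large protease with many substrates in membrane traffic and cell survival, was the brightest at 45.1, 31.4 and 41.2 in replicates 1, 2 and 3. Usp47, which acts on a polymerase of base excision repair, followed at 38.0, 30.6 and 33.8, and Usp7, which removes ubiquitin from Mdm2 and p53, stood at 34.0, 18.5 and 29.9. The values of these 3 genes overlapped between arrays, but their order was the same in replicates 1, 2 and 3. In replicate 2 Usp9x and Usp47 were close. At the low end of the expressed members were Usp13 at 4.40, 3.46 and 4.19, Usp54 at 4.13, 3.76 and 3.49, and Usp27x at 2.40, 3.15 and 2.64. Usp27x lay below all values of the others, whereas Usp13 and Usp54 overlapped. Probe sets differ in how well they hybridize, so levels of different genes on an array give no exact order of abundance. The median 0 min mean over the 39 members was 9.83, against 8.62 over all 12544 expressed probe sets.

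**Figure D1:**
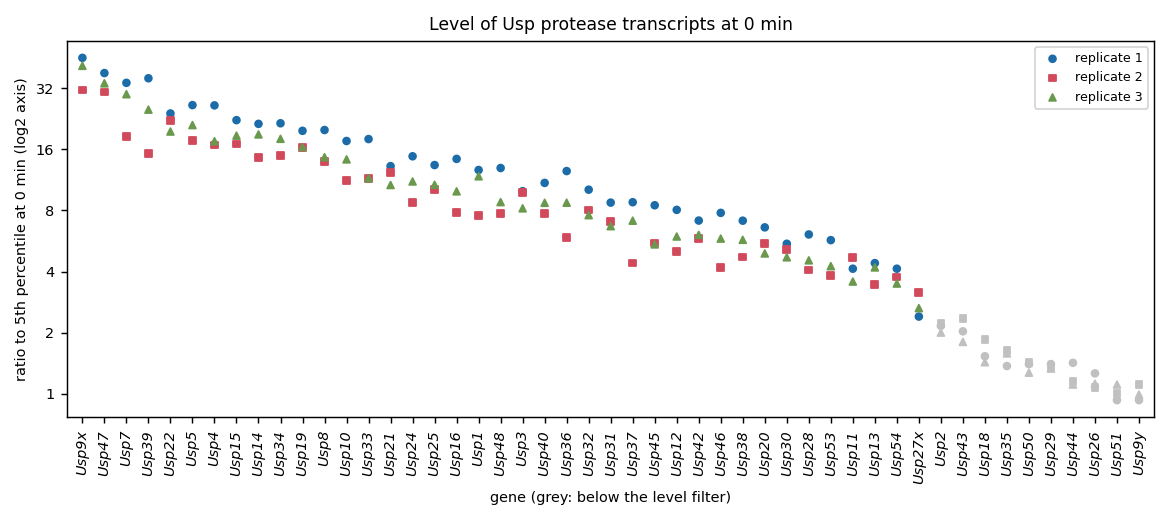
Level of each of the 49 Usp protease transcripts at 0 min, as the ratio to the 5th percentile of the array on a log2 axis, with 1 point per replicate. Genes in grey are the 10 below the level filter, from Usp2 at a mean of 2.13 down to Usp9y at 1.01, and the coloured genes run from Usp9x at 39.2 to Usp27x at 2.73.

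The 10 members below the filter lay near the dimmest probe sets of the array. Their 0 min means were 2.13 for Usp2, 2.06 for Usp43, 1.60 for Usp18, 1.53 for Usp35, 1.36 for both Usp50 and Usp29, 1.23 for Usp44, 1.15 for Usp26, and 1.01 for both Usp51 and Usp9y. Among them are Usp18, which removes the ubiquitin-like protein Isg15 in the interferon response, and Usp44, a protease of the mitotic checkpoint. Usp9y, the Y-linked copy of Usp9x, was at the floor of the scale on arrays where Usp9x was the brightest member. These genes had little room to fall on this scale, and they are left out of the counts of decay.

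All 39 expressed Usp transcripts fell with time on the deposited scale, where 96.4% of all expressed probe sets fell, but this count depends on how the arrays are scaled. The test was a linear trend of the log2 level against time in limma, with the replicate time course as a block and Benjamini-Hochberg adjustment over 12544 probe sets. The median slope of the members was -0.33 log2 per hr, with a range from -0.66 to -0.16, against -0.25 over all expressed probe sets. With each array divided by its median instead, 25 of the 39 fell and 0 rose, against 37.8% and 1.96% of all expressed probe sets. Division by the 75th percentile left 12 that fell, against 15.7%, and 11 that rose, against 50.0%. With these scalings the median slope of all expressed probe sets moved to -0.07 and 0.07. None of the 39 rose as deposited, as against 0.0239% of all expressed probe sets. By the paper's methods each array received the same amount of total RNA and was scaled to itself. The values therefore carry no measure of cell number or of RNA per cell. A fall shared by most transcripts was reduced by division by the median, to a median slope of -0.07. Division by the 75th percentile went past 0, to 0.07.

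**Figure D2:**
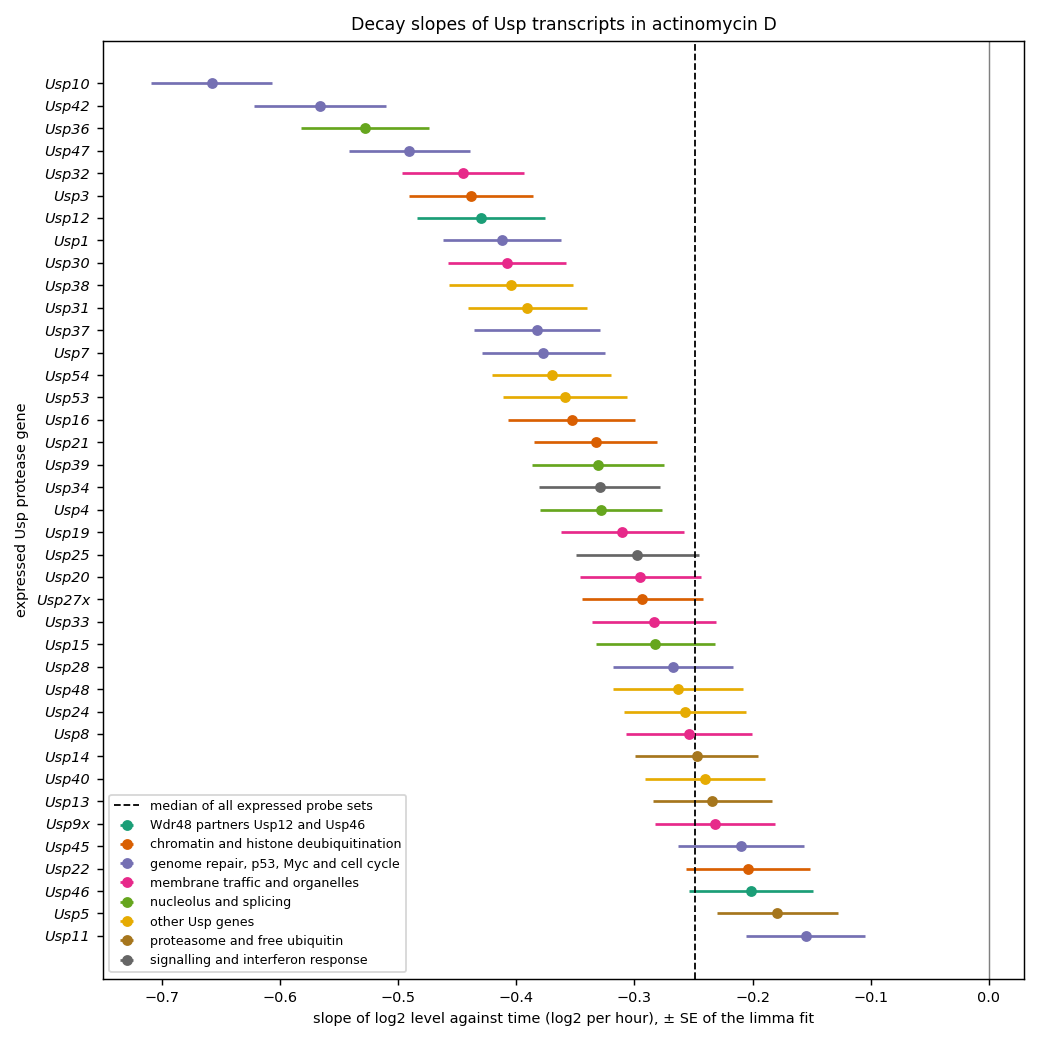
Decay slopes (log2 per hour) of the 39 expressed Usp transcripts on the deposited scale, with bars for the standard error of the limma fit, colours for the roles named in the text and a dashed line at the median of all expressed probe sets (-0.25). Slopes run from -0.66 (Usp10) to -0.16 (Usp11), and with arrays divided by their 75th percentile those of Usp27x, Usp13, Usp9x, Usp45, Usp22, Usp46, Usp5 and Usp11, among the members named with full values, lay above 0.

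The order of the slopes was similar in the 3 time courses, which share each array with every other gene. Spearman's rho over the 39 genes was 0.82 between replicates 1 and 2, 0.94 between 1 and 3 and 0.74 between 2 and 3, given as a description. The median slope was -0.31, -0.38 and -0.24 log2 per hr in replicates 1, 2 and 3. Slope and 0 min level were nearly unrelated over the 39 genes (rho 0.08).

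The fall was seen late. At 10 min 0 of 39 members were below 0 min (limma, adjusted p under 0.05), as were 0.0% of all expressed probe sets, and at an unadjusted p under 0.05 the counts were 0 members and 124 probe sets (0.989%). At 50 min 1 member had fallen, Usp42, against 1.99% of all expressed probe sets, and 7 members were lower at an unadjusted p under 0.05, against 9.72% of all. At 110 min 37 of 39 had fallen (94.9%), against 84.8% of all, and at 230 min 39 of 39, against 94.3%. The exceptions at 110 min were Usp5 (adjusted p = 0.057) and Usp11 (adjusted p = 0.11). The median share of the 0 min mean that was left was 95.1%, 90.4%, 54.7% and 45.5% for the members at 10, 50, 110 and 230 min, beside 93.1%, 92.3%, 62.0% and 54.0% for all expressed probe sets. These contrasts share the 0 min arrays. All 3 values at 110 min lay below all 3 at 0 min for 32 of 39 members and 72.9% of all expressed probe sets. At 230 min this held for 36 of 39 members and 84.3% of all, so groups without overlap do not set a gene apart. With arrays centred on the median of their expressed probe sets, 3, 6 and 11 of the 39 members were lower at 50, 110 and 230 min, against 2.85%, 9.78% and 14.5% of all expressed probe sets.

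Since nearly every transcript fell, the slopes were also set against the median of the expressed probe sets of each array. On that scale 12 of 39 Usp transcripts (30.8%) fell faster than the array median, against 15.6% of all expressed probe sets, and 11 of 39 (28.2%) fell more slowly, against 50.2%. The 12 were Usp10, Usp42, Usp36, Usp47, Usp32, Usp3, Usp12, Usp1, Usp30, Usp38, Usp31 and Usp7. The 11 were Usp24, Usp8, Usp14, Usp40, Usp13, Usp9x, Usp45, Usp22, Usp46, Usp5 and Usp11. The other 16 did not pass in either direction. The array median itself fell by 0.32 log2 per hr, more than the median single transcript, so the typical transcript is not at 0 on this scale. The median relative slope was 0.07 over all expressed probe sets and -0.01 over the members. With the arrays centred so that the typical transcript was near 0 (a choice added after the data were seen), 19 members were lower, against 24.9% of all, and 2 were higher, against 22.6%. Centring on the median of all probe sets is the same fit as dividing by the array median, and left 25 lower and 0 higher. Expressed probe sets mostly lie above the array median, so their own median was close to the 75th percentile of the array. In replicate 1 at 0 min these were 9.84 and 9.81. The relative trend and the trend after division by the 75th percentile are thus nearly the same fit, not separate checks. The 12 and 11 became 7 and 7 without replicate 1, where 12.2% of all were lower and 38.3% higher.

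Among the proteases of genome repair, p53, Myc and the cell cycle, 9 were expressed and their median slope was -0.38 log2 per hr. Of the 9, 5 fell faster and 2 more slowly than the array median, against 15.6% and 50.2% of all expressed probe sets. The same shares are the background for the other role groups below. Usp10 acts on p53 and on endosomal receptors and binds the stress granule protein G3bp1, and it had the steepest slope of the 39. Its levels in replicates 1, 2 and 3 were 17.6, 11.2 and 14.3 at 0 min, 13.6, 7.26 and 11.7 at 50 min, 4.68, 4.36 and 5.81 at 110 min, and 3.45, 1.75 and 2.94 at 230 min. Every value at 110 and 230 min lay below every value at 0 min, and replicate 2 was the lowest at each of these times. The slope was -0.66 log2 per hr (SE 0.05, adjusted p = 5.9e-18), and 18.9% of the 0 min mean was left at 230 min.

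Usp42, a nuclear protease that also acts on p53, was the member that had fallen by 50 min. It measured 7.13, 5.80 and 6.06 at 0 min, 6.66, 4.76 and 5.59 at 10 min, 3.52, 3.32 and 3.77 at 50 min, 1.54, 1.61 and 2.03 at 110 min, and 1.63, 1.34 and 1.43 at 230 min in replicates 1, 2 and 3. The 50 min values were all below those of 0 min and lay close together, and between 110 and 230 min the groups overlapped, near the floor of 1.00. The change at 50 min was -0.84 log2 (SE 0.21, adjusted p = 0.011), a call that was not made when any 1 of the replicates was left out. The slope over all times was -0.57 log2 per hr (SE 0.06, adjusted p = 7.6e-14), and -0.90 with the 5th percentile subtracted from every value. In that setting small remainders were raised to a fixed minimum, which some 230 min values of Usp42 met.

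Usp47 started high and fell after 50 min, from 38.0, 30.6 and 33.8 at 0 min and 26.1, 37.3 and 29.3 at 50 min to 15.04, 17.96 and 23.29 at 110 min and 10.8, 7.23 and 11.4 at 230 min. Groups overlapped at 50 min and not at 110 or 230 min, and the slope was -0.49 log2 per hr (SE 0.05). Without the 230 min arrays Usp47 did not pass against the array median (adjusted p = 0.74). Usp1, which with Wdr48 clears ubiquitin from Fancd2 and Pcna, went from 12.7, 7.54 and 11.8 at 0 min to 4.23, 2.26 and 3.74 at 230 min, all below the start, with a slope of -0.41. Usp7 went from 34.0, 18.5 and 29.9 to 15.1, 5.54 and 13.1, also without overlap, with a slope of -0.38. Usp37, a cell cycle protease that acts on cyclin A, had a slope of -0.38 and Usp28, which stabilises Myc, one of -0.27, neither of them apart from the array median.

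At the other end of the same group were Usp45 and Usp11. Usp11, which acts with Brca2 in homologous recombination, had the shallowest slope of all expressed members. It measured 4.13, 4.67 and 3.57 at 0 min, 4.59, 4.62 and 4.41 at 50 min, 2.40, 4.22 and 3.23 at 110 min, and 2.76, 2.82 and 3.11 at 230 min in replicates 1, 2 and 3. Only at 230 min did the values lie below all of those at 0 min, and at 110 min replicate 2 was still within them. The slope was -0.16 log2 per hr (SE 0.05, adjusted p = 0.0036), but 0.03 with arrays divided by their median and 0.16 with arrays divided by their 75th percentile. Usp45, which acts on the repair nuclease subunit Ercc1, went from 8.48, 5.53 and 5.44 at 0 min to 5.10, 3.02 and 3.73 at 230 min, below the start in all replicates, with a slope of -0.21 that became 0.11 under division by the 75th percentile and under quantile normalization.

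The slopes of the 5 expressed proteases of chromatin ran from -0.44 to -0.20 log2 per hr around a median of -0.33, and 1 fell faster and 1 more slowly than the array median. Usp3, which removes ubiquitin from histone H2A, fell from 9.95, 9.84 and 8.19 at 0 min to 3.26, 2.18 and 3.43 at 230 min, with no overlap and a slope of -0.44 (SE 0.05). Usp22, the protease subunit of the SAGA coactivator complex, went from 24.0, 22.2 and 19.6 to 15.2, 9.43 and 14.3, again with no overlap. Its slope was -0.20 (SE 0.05, adjusted p = 0.00032), but 0.11 with arrays divided by their 75th percentile. Its relative Usp27x went from 2.40, 3.15 and 2.64 to 1.23, 1.28 and 1.51, near the floor of the scale, with a slope of -0.29. That slope was 0.02 under division by the 75th percentile, -0.14 after quantile normalization and -0.50 with the 5th percentile subtracted. The last rested in part on values raised to the fixed minimum. Usp16 and Usp21, which act on histone H2A, had slopes of -0.35 and -0.33, neither apart from the array median.

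The 3 expressed proteases of free ubiquitin and the proteasome had a median slope of -0.23 log2 per hr. Each fell more slowly than the array median of expressed probe sets, as 50.2% of all did, and none when arrays were centred on the median of all probe sets. Usp5, or isopeptidase T, takes apart unanchored ubiquitin chains, Usp13 is its relative, and Usp14 sits on the proteasome and trims chains from its substrates. Usp5 measured 26.4, 17.6 and 21.1 at 0 min, 24.1, 21.5 and 23.0 at 50 min, and 17.4, 9.41 and 16.9 at 230 min in replicates 1, 2 and 3. The 230 min values lay below the start in all replicates, and those of 50 min lay within it. Its slope was -0.18 log2 per hr (SE 0.05, adjusted p = 0.001), but 0.00 with arrays divided by their median and 0.14 with arrays divided by their 75th percentile. Usp13 went from 4.40, 3.46 and 4.19 at 0 min to 2.55, 2.07 and 2.36 at 230 min, without overlap, with a slope of -0.23 that was 0.08 under the 75th percentile and 0.06 under quantile normalization. Usp14 had a slope of -0.25. Without replicate 2, the adjusted p of the Usp5 and Usp11 slopes was 0.057 and 0.056, and without the 230 min arrays that of Usp11 was 0.076.

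**Figure D3:**
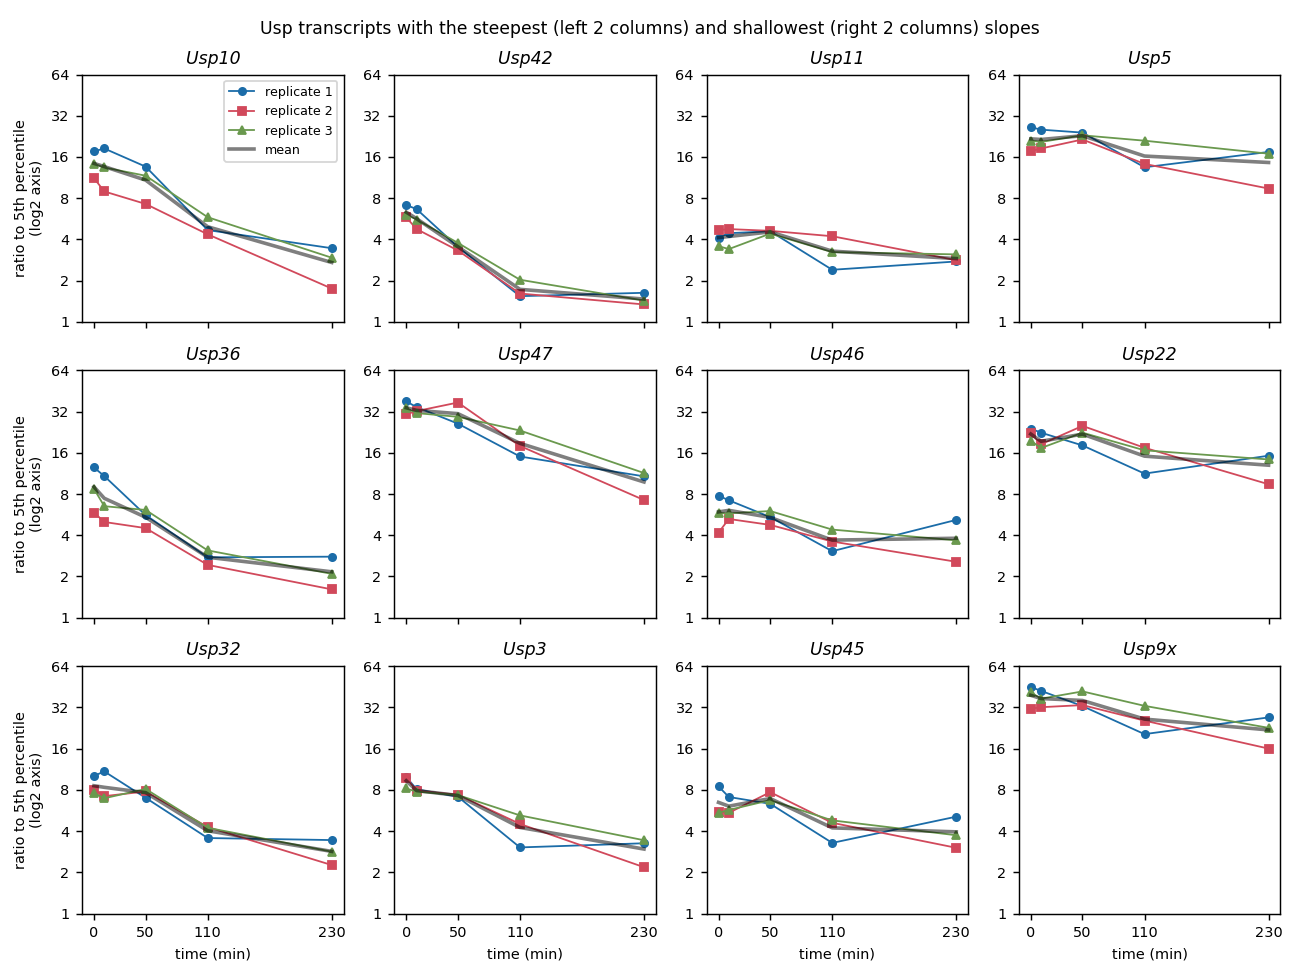
Levels of the 6 Usp transcripts with the steepest slopes (left columns) and the 6 with the shallowest (right columns), as ratios to the 5th percentile of the array on a log2 axis against time in actinomycin D in minutes, with a coloured line per replicate and a dark line for their mean. Usp10 ended at 18.9% of its 0 min mean and Usp11 at 70.3%, as deposited, and replicate 1 dips at 110 min in all 6 slow transcripts.

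Of the 7 expressed proteases of membrane traffic and organelles, whose median slope was -0.30 log2 per hr, 2 fell faster and 2 more slowly than the array median. Usp32, a protease of the Golgi and late endosomes, went from 10.1, 8.04 and 7.58 at 0 min to 3.44, 2.26 and 2.83 at 230 min, with a slope of -0.45 (SE 0.05), and without the 230 min arrays it did not pass against the array median (adjusted p = 0.054). Usp30, which is anchored in the outer mitochondrial membrane and opposes Parkin, went from 5.48, 5.14 and 4.70 to 1.96, 1.52 and 1.87, with a slope of -0.41 (SE 0.05). With the 5th percentile subtracted its slope was -0.65, steeper than that of the brighter Usp47 (-0.52), the reverse of the deposited order. The order of this pair thus changed with the subtraction, and the cause was not tested. Neither Usp32 nor Usp30 had overlapping groups at 0 and 230 min. All 230 min values lay below all 0 min values in 84.3% of all expressed probe sets. Usp9x, the brightest member, went from 45.1, 31.4 and 41.2 to 27.06, 16.02 and 22.71, below the start in every replicate. Its slope was -0.23 (SE 0.05, adjusted p = 3.6e-05), but 0.09 with arrays divided by their 75th percentile. Usp8, which acts on receptors at the endosome, also fell more slowly than the array median, with a slope of -0.25. Usp19, of the endoplasmic reticulum, and the related pair Usp20 and Usp33, which act on the beta2-adrenergic receptor, had slopes of -0.31, -0.30 and -0.28 and did not pass in either direction.

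Usp36, a protease of the nucleolus, had the third steepest slope of the family. It measured 12.5, 5.86 and 8.73 at 0 min, 5.61, 4.51 and 6.12 at 50 min, 2.76, 2.43 and 3.10 at 110 min, and 2.79, 1.61 and 2.09 at 230 min. Replicate 1 started highest, the groups overlapped at 50 min and they were apart from 110 min on. The slope was -0.53 log2 per hr (SE 0.05, adjusted p = 2.6e-13), and the change at 50 min did not pass (adjusted p = 0.074). The splicing factor Usp39 and the related proteases Usp4 and Usp15, which act on spliceosome proteins, had slopes of -0.33, -0.33 and -0.28 and were not apart from the array median.

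Usp12 and Usp46, both activated by Wdr48, lay on opposite sides of the array median of expressed probe sets, though Usp46 was at -0.02 log2 per hr when arrays were centred on the median of all probe sets. Usp12 went from 8.05, 5.02 and 5.95 at 0 min to 2.38, 1.80 and 2.51 at 230 min, with a slope of -0.43 log2 per hr (SE 0.05) that was lower than the array median. Usp46 went from 7.78, 4.18 and 5.81 to 5.18, 2.56 and 3.67, so that its groups overlapped, and its slope was -0.20 (SE 0.05, adjusted p = 0.00037), but 0.12 with arrays divided by their 75th percentile. In the signalling group Usp25 (-0.30) and Usp34 (-0.33), which acts on axin in Wnt signalling, did not pass in either direction.

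The 7 remaining expressed genes had a median slope of -0.36 log2 per hr, with 2 lower and 2 higher than the array median. Usp31 went from 8.74, 7.04 and 6.69 at 0 min to 3.10, 2.26 and 2.60 at 230 min, without overlap, with a slope of -0.39 (SE 0.05). Usp38 had a slope of -0.40, Usp53 one of -0.36, Usp48 one of -0.26, Usp24 one of -0.26 and Usp40 one of -0.24. Usp54 went from 4.13, 3.76 and 3.49 to 1.73, 1.33 and 1.37, with a slope of -0.37, or -0.62 with the 5th percentile subtracted. Some 230 min values of Usp54 were then raised to the fixed minimum. Its second probe set, at 3.03 at 0 min, had a slope of -0.23 and fell more slowly than the array median (adjusted p = 0.0097), where the first did not pass (adjusted p = 0.12). Usp24, whose slope was above the array median by 0.06 (adjusted p = 0.032), had a second probe set with a slope of -0.25 that did not pass (adjusted p = 0.12).

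For half-lives, a first-order decay curve was fitted to the ratios of each time course, and a half-life was called reliable when the decay rate had p under 0.05 and the 95% confidence interval was narrower than 2 times the half-life, in at least 2 of 3 replicates. Of the 39 members 7 (17.9%) were reliable, against 11.2% of all expressed probe sets, 12 met the criteria in 1 replicate and 20 in none. The shortest belonged to Usp42, at 1.18 ± 0.218 hr (SD, n = 3 time courses), and Usp10, at 1.45 ± 0.189 hr (SD, n = 3). Usp31 (2.20 ± 0.264 hr), Usp3 (2.21 ± 0.731 hr), Usp30 (2.25 ± 0.392 hr), Usp47 (2.26 ± 0.555 hr) and Usp1 (2.38 ± 0.514 hr) followed, all within a spread of each other. The median of the 7 was 2.20 hr, as it was over the 1401 reliable probe sets. Usp10 and Usp30 met the criteria in all 3 replicates, and 3 members were reliable without replicate 2 and 3 without replicate 3. The half-lives in hours moved with the scaling, and after division of each array by its 75th percentile they were 2.89 for Usp10, 3.11 for Usp42, 6.77 for Usp47, 9.44 for Usp3, 10.9 for Usp30, 12.6 for Usp1 and 14.3 for Usp31. With a constant floor in the curve, Usp42 was at 0.684 hr, Usp47 at 0.974 hr and Usp31 at 1.30 hr.

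**Figure D4:**
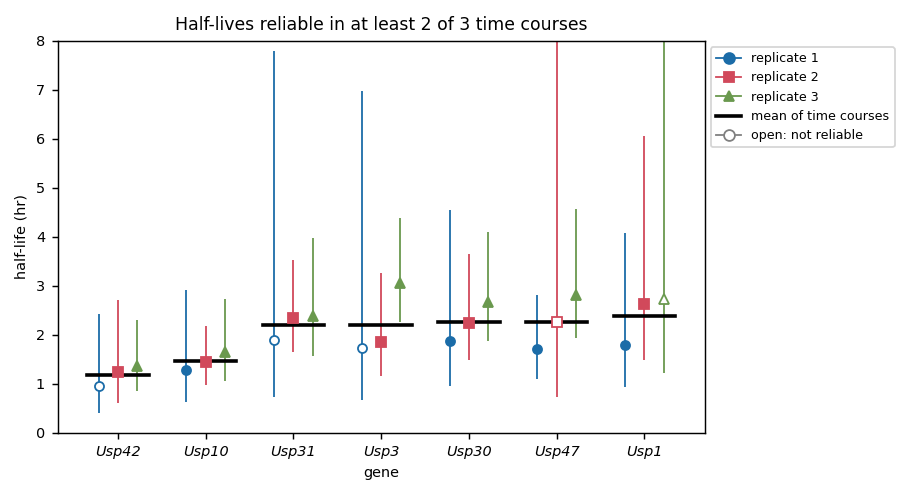
Half-life in hours for the 7 Usp transcripts that were reliable in at least 2 of 3 time courses, with 1 point per replicate, bars for the 95% profile confidence interval (some run past the axis), open points for fits that did not meet the criteria and a black line for the mean. Usp42 (1.18 hr) and Usp10 (1.45 hr) lie below the other means, which run from 2.20 to 2.38 hr, on the deposited scale, while division by the 75th percentile spreads the 7 means from 2.89 to 14.3 hr.

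The other half-lives did not meet the criteria and are given as a description. Usp36 was at 1.47 ± 0.507 hr (SD, n = 3 time courses), Usp38 at 1.96 ± 0.505 hr, Usp12 at 2.09 ± 0.674 hr and Usp32 at 2.21 ± 0.578 hr. Usp7 was at 2.73 ± 0.647 hr, Usp14 at 4.0 ± 0.718 hr, Usp9x at 4.26 ± 0.711 hr and Usp22 at 5.73 ± 2.94 hr. Usp5 (7.30 ± 5.04 hr) and Usp11 (8.64 ± 6.22 hr) differed by less than their spread.

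Pairs of related Usp genes were compared by the difference of their slopes within each time course. Dividing all values of an array by the same factor leaves this difference unchanged, but quantile normalization can change it. The slopes of Usp36 and Usp42 over all replicates were -0.53 and -0.57 log2 per hr as deposited, and -0.24 and -0.36 after quantile normalization. Those of Usp47 and Usp7 went from -0.49 and -0.38 to -0.23 and -0.11, with little change in their difference. The 12 pairs were chosen after the values were seen, and 3 time courses cannot give an exact two-sided p below 0.25, so the differences are a description. In 9 of 12 pairs the difference had the same sign in all 3 time courses. Usp12 was steeper than Usp46 by 0.29, 0.24 and 0.15 log2 per hr in replicates 1, 2 and 3, and Usp4 was steeper than Usp11 by 0.11, 0.22 and 0.19. Usp16 was steeper than Usp45 by 0.14, 0.19 and 0.10, and Usp47 was steeper than Usp7 by 0.15, 0.10 and 0.09. The related Usp36 and Usp42 differed by 0.04 ± 0.03 (SD, n = 3), and Usp25 and Usp28 by -0.03 ± 0.01. The sign varied between time courses for Usp5 and Usp13, Usp20 and Usp33, and Usp53 and Usp54.

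The other deubiquitinase families served as a background. Of 38 genes listed, 37 were found and 33 were expressed. All 33 fell as deposited, as 96.4% of all expressed probe sets did, at a median of -0.31 log2 per hr. Of the 33, 6 were lower and 9 higher than the array median, against 15.6% and 50.2% of all. With arrays divided by their 75th percentile 7 fell and 9 rose, against 15.7% and 50.0% of all. Of the 3 genes with a Usp fold but another name, Uspl1 had the steepest slope (-0.55) and Cyld, which acts on chains in NF-kappaB signalling, the shallowest (-0.28). Among the 13 ovarian tumour (OTU) proteases Zranb1 was at -0.49 and Otud3 at -0.22, and among the 7 zinc-dependent JAMM proteases Stambpl1 was at -0.52 and Mpnd at -0.19. Of 9 Usp cofactors 8 were expressed and fell, with a median of -0.32. Gmps, which binds Usp7, was at -0.49, Wdr20, the partner of Usp12 and Usp46, at -0.44, Wdr48 at -0.30 and G3bp1, the partner of Usp10, at -0.24.

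The Usp17l genes are a mouse group of tandemly duplicated deubiquitinases, first known as genes that cytokines induce in blood cells. Of 4 with a probe set of their own, Usp17ld alone was expressed, and it was the only expressed gene found by the rule that rose. The sequences upstream of Usp17ld and of its nearest relative here, Usp17lc, are shown to let a reader see how alike the copies are. They are from RefSeq on GRCm38.p6, and the 9 bases that differ between them are in capitals; Usp17ld is at chr7:103252528-103252755 (minus strand) and Usp17lc at chr7:103416468-103416695 (plus strand), and both stretches are 228 bases long and lie upstream of the annotated start.
Usp17ld: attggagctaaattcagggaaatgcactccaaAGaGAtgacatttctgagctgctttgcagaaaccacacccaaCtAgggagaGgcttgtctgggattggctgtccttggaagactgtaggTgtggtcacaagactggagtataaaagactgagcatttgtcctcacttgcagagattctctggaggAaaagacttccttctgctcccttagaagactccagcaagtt
Usp17lc: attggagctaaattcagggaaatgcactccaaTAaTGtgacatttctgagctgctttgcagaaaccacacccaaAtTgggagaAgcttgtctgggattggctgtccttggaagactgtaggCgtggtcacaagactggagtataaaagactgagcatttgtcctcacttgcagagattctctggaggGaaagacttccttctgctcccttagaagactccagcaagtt

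Over the whole window from 250 bases before to 50 after the start, the promoters of the 4 genes were 91.7% to 96.8% identical where they aligned. The probe sequences were not used here, so how far each probe set tells the copies apart is uncertain. The probe set assigned to Usp17ld measured 10.7, 4.53 and 7.43 in replicates 1, 2 and 3 at 0 min, 8.20, 6.36 and 12.6 at 10 min, 17.5, 7.84 and 7.41 at 50 min, 46.8, 24.4 and 64.6 at 110 min, and 25.5, 31.3 and 20.4 at 230 min. Values at 110 and 230 min were above all those at 0, 10 and 50 min, those of the first 3 times overlapped, and the replicates peaked at different times, replicate 2 at 230 min and the others at 110 min.

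The change of Usp17ld against 0 min was 2.56 log2 at 110 min (SE 0.23, adjusted p = 1.6e-17), or 5.89-fold, and 1.83 log2 at 230 min (adjusted p = 2.2e-11), or 3.56-fold. Both were the highest of the 12544 expressed probe sets, the next being 0.70 and 0.53. The slope was 0.53 log2 per hr (SE 0.08, adjusted p = 1.9e-08), and Usp17ld was 1 of 3 probe sets that rose. The adjusted p of the limma slope was larger in other settings. It was 0.00056 after quantile normalization, 0.0035 with no level filter and 0.0075 with a trended and robust variance. The slope was also above 0 and past the threshold with arrays divided by their median (0.71), by their 75th percentile (0.85) or quantile normalized (0.80), and with any 1 replicate left out (0.43 to 0.58). A linear trend does not describe the course, and without the 230 min arrays the slope was 1.34.

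Probe sets of the other copies did not move in the same way. Usp17la, Usp17lb and Usp17lc were below the level filter, with 0 min means of 1.37, 1.69 and 1.49 and 110 min means of 1.14, 1.40 and 1.49. Their slopes, fitted with no level filter, were -0.10, -0.11 and -0.02 log2 per hr. A probe set assigned to 4 Usp17l symbols at once measured 2.19, 2.35 and 2.25 at 0 min and 1.38, 1.31 and 1.40 at 230 min, without overlap, with a slope of -0.17 (SE 0.03, adjusted p = 0.00013).

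**Figure D5:**
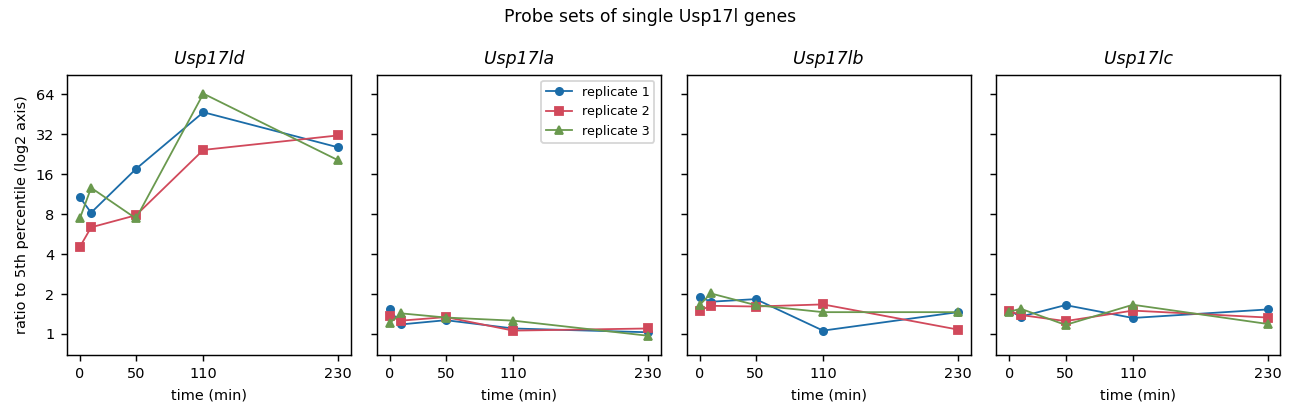
Levels of the probe sets assigned to single Usp17l genes, as ratios to the 5th percentile of the array on a log2 axis against time in actinomycin D in minutes, with a line per replicate. Usp17ld went from a mean of 7.55 at 0 min to 45.3 at 110 min, and the probe sets of Usp17la, Usp17lb and Usp17lc stayed between 0.97 and 2.02.

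Usp6nl, the GTPase-activating protein of Rab5 that the naming rule also finds, went from 10.2, 5.62 and 7.41 at 0 min to 3.31, 2.08 and 2.79 at 230 min, without overlap. Its slope was -0.39 log2 per hr (SE 0.05), its decay curve gave a half-life of 2.48 ± 0.680 hr (SD, n = 3), reliable in 2 replicates, and it fell faster than the array median (adjusted p = 0.013).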

How the data were processed

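Arrays were 15, with 1 for each time and replicate. The authors summarised each probe set and divided it by the 5th percentile of its array, and the deposited values are these linear ratios; how the probes were summarised is stated in none of the sources used here. No value was 0 or negative, so log2 was taken with no pseudocount. Genes were named from the platform annotation (21044 probe sets with 1 symbol, 1492 with several, 2639 with none).

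Trends and contrasts were fitted to log2 ratios of all expressed probe sets with limma 3.58.1 in R 4.3.3 (replicate as a fixed block, eBayes, two-sided, Benjamini-Hochberg at 0.05). Expression was judged by level at 0 min in place of detection p-values. Decay curves were fitted by least squares over a grid of decay rates with numpy 2.4.6 in Python 3.11.15. The t and F distributions came from scipy 1.17.1. The scripts were tested on simulated data. Replicate numbers mark time courses fitted separately in the study's methods: 29 of 30 same-number pairs of arrays had deviations correlated over 0.1 (median 0.36), as did 14 of 60 other pairs (median -0.22). Precision is limited by how few arrays there are. Array batches are not given.

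Every member is accounted for. Given with full values are members with a reliable half-life, the 5 steepest and 5 shallowest slopes, the 3 highest and 3 lowest levels and, of those apart from the array median, the 6 steepest and 6 shallowest. The members, role lists and pairs were chosen with earlier results of these data known. Alternatives covered the scaling, filter, block, variance model, curve, replicates and times. Usp cofactors and other deubiquitinases were listed by hand; none of 4 ubiquitin genes listed was found.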

Additional observations from a re-analysis of the deposited data

How the results depend on the processing

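With a replicate block left out, 39 members fell, against 95.5% of all expressed probe sets. Then 10 and 9 members were lower and higher than the array median, against 13.9% and 44.0% of all. The block thus changed no count of members by over 1.5 times, and a random block gave 39 that fell, against 96.0%. The scaling decided most. For the decay trend, 25 members fell with arrays divided by their median, and 12 fell and 11 rose with their 75th percentile. After quantile normalization 16 fell and 6 rose, against 23.9% and 29.3% of all expressed probe sets. Under a stricter level filter 24 of 24 tested fell, against 93.3% of all probe sets tested. Of the other deubiquitinases 7 fell and 9 rose with the 75th percentile, against 15.7% and 50.0% of all expressed probe sets.

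For the relative trend, 25 were lower and 0 higher (at most 0.03 log2 per hr) when centred on all probe sets, and 19 and 2 on the median deviation. Under the stricter filter 7 and 7 were, against 18.5% and 50.4% of all probe sets tested. Without the 230 min arrays 7 were lower and 4 higher, against 11.5% and 29.3% of all expressed probe sets. Higher counts were 6 after quantile normalization, 20 of 49 with no filter and 7 with the first time point left out. The shares of all probe sets tested were 29.3%, 74.2% and 43.2%. Leaving out 1 replicate gave 7 to 12 lower and 7 to 9 higher, against 12.2% to 14.5% and 38.1% to 47.2% of all.

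For the contrasts, centring gave 3, 6 and 11 lower at 50, 110 and 230 min. At 50 min, leaving out any 1 replicate gave 0. Leaving out the low arrays (110 min replicate 1, 230 min replicate 2, added after the data were seen) gave 6. There 8.52% of all expressed probe sets were lower, against 1.99% with all arrays. Reliable half-lives numbered 2 in all 3 replicates (1.67% of all expressed probe sets), 18 by p alone (34.2%) and 11 on log2 values (22.3%). They numbered 1 and 2 with arrays divided by the 75th percentile and the median (2.08% and 2.54%). A constant floor in the curve left 0 (0.494%). There were 0 with the first time point left out (2.23%) and 3 with the last left out (4.4%). Leaving out 1 replicate gave 3 to 5 (2.26% to 9.37%).

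Slopes that turned positive, in log2 per hr, were as follows. With the 75th percentile Usp27x was at 0.024, Usp13 at 0.083, Usp9x at 0.086, Usp45 at 0.108, Usp22 at 0.113, Usp46 at 0.116, Usp5 at 0.138 and Usp11 at 0.162. After quantile normalization Usp9x was at 0.010, Usp13 at 0.058, Usp22 at 0.064, Usp5 at 0.086, Usp45 at 0.109, Usp46 at 0.114 and Usp11 at 0.151. With the array median Usp5 was at 0.0022 and Usp11 at 0.026. Relative slopes turned negative when centred on all probe sets, at -0.051 for Usp9x, -0.029 for Usp45, -0.023 for Usp22 and -0.020 for Usp46. Over the named members, 264 of the other slope values, 161 relative slopes and 56 half-lives kept their direction and side, and 9, 11 and 21 weakened or moved. The 56 include half-lives under the criteria of all 3 replicates and of p alone, which reuse the main fit and could not move. Relative calls were lost without the 230 min arrays for Usp47, Usp32, Usp45 and Usp46, and on the median deviation for Usp9x, Usp45, Usp22 and Usp46. Beyond the scaling and the omitted samples the cause was not tested.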

Other observations

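Of the 10 Usp members below the level filter, 6 had an adjusted p under 0.05 in a limma trend fitted to all 25175 probe sets with no level filter, all with negative slopes, where 75.8% of all probe sets fell. Usp2, which is known for its part in the circadian clock, had the steepest of these at -0.17 log2 per hr (adjusted p = 0.00017), going from 2.16, 2.22 and 2.00 at 0 min to 1.45, 1.23 and 1.41 at 230 min without overlap. Usp18 went from 1.53, 1.85 and 1.43 to 1.18, 1.26 and 1.11, also without overlap, with a slope of -0.10. Usp50, Usp9y, Usp26 and Usp51 did not pass.

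The opposite-strand transcript Usp46os2 measured 1.90, 2.37 and 1.63 at 0 min and 1.32, 1.21 and 1.11 at 230 min, below the level filter. Its slope without a filter was -0.18 log2 per hr (limma, adjusted p = 0.00066), beside -0.20 for Usp46 on the deposited scale.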
